A study of Bos grunniens with 6 samples.

Results

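MFNG, LFNG and NOTCH3 are 3 genes of the Notch pathway, and they were read here as 3 of the 15646 rows of an expression table from cultured yak hair follicle cells. The rows were taken by gene symbol: MFNG is ENSBGRG00000006203, LFNG is ENSBGRG00000023763 and NOTCH3 is ENSBGRG00000018066. They were chosen by their measured FPKM difference between the cell types of this study, so their levels are described and not tested. The study (Bos grunniens) cultured dermal papilla cells (DPC), the mesenchymal cells under the follicle, and hair matrix cells (HMC), the dividing epithelium around them, and sequenced mRNA from 3 cultures of each. All 6 cultures are labelled wild type and grew in DMEM/F12 with IGF1 (10 ng/mL), EGF (20 ng/mL) and 10% FBS. The labels call the cultures biological replicates and do not say whether they came from separate animals, so p-values measure the spread between these cultures only.

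Notch receptors are membrane proteins that are cut and release a transcriptional activator when a ligand on a neighbouring cell binds them. Fringe enzymes work in the Golgi before that step. They add N-acetylglucosamine to O-linked fucose on the EGF-like repeats of the receptor, which alters its response to Delta-type against Jagged-type ligands. Mammals have manic fringe (MFNG), lunatic fringe (LFNG), known for its part in the segmentation clock of the embryo, and radical fringe (RFNG). NOTCH3 is best known from the mural cells of blood vessels, and in the hair follicle the pathway is known for its part in the differentiation of matrix progeny.

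Between 13.1 and 14.0 M reads per library (M, mega) could be recovered from the table, which holds FPKM, fragments scaled to gene length and library size. Values written with ± are the mean and SD over 3 cultures (n = 3 per group). The cultures were checked against marker lists. All 8 fibroblast and mesenchyme markers were higher in DPC, the most abundant being COL1A2 at 5051 ± 202 FPKM in DPC against 92.1 ± 7.37 FPKM in HMC. Of 8 epithelial markers 7 were higher in HMC, the most abundant being KRT8 at 3352 ± 106 FPKM in HMC against 8.56 ± 1.46 FPKM in DPC. KRT14 did not pass the test. Other lists were matched in part, with 6 of 8 endothelial, 5 of 7 blood cell and 2 of 5 melanocyte markers. The most abundant endothelial marker was VWF, at 1.08 FPKM in HMC against 0.0355 FPKM in DPC. For blood cells it was LAPTM5, at 9.46 FPKM in DPC against 0.257 FPKM in HMC. For melanocytes it was PMEL, at 3.97 FPKM in HMC against 2.98 FPKM in DPC. HMC replicate 3 stood apart from the other HMC libraries on a second principal component that held 0.770% of the variance, so member values are also given without it. Any difference between cultures may reflect fewer cells that carry an mRNA or less mRNA per cell, and these cannot be told apart here.

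MFNG was near the detection limit in DPC and abundant in HMC. It stood at 0.363, 0.0413 and 0.326 FPKM in DPC replicates 1 to 3, and at 32.9, 33.4 and 35.7 FPKM in HMC replicates 1 to 3. The groups lay far apart, and the lowest HMC library was 90.6 times the highest DPC library. Behind the DPC values were 9, 1 and 8 reads, against 836, 858 and 927 reads in HMC, and a single MFNG read was worth between 0.0385 and 0.0413 FPKM. DPC replicate 2 was the low library of its group. Its exact 95% Poisson interval, 0.00105 to 0.230 FPKM, overlapped those of DPC replicate 1 (0.166 to 0.690 FPKM) and DPC replicate 3 (0.141 to 0.642 FPKM). Whether the DPC cultures differed in MFNG was not tested. These intervals cover counting error only. The group means were 0.244 ± 0.176 FPKM in DPC against 34.0 ± 1.49 FPKM in HMC, a ratio of 140 toward HMC. Leaving out DPC replicate 2 brought that ratio to 98.6, and leaving out DPC replicate 1 brought it to 185. Without HMC replicate 3 it was 136.

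LFNG had the opposite arrangement. It stood at 31.8, 33.5 and 30.7 FPKM in DPC replicates 1 to 3, and at 1.91, 1.74 and 2.32 FPKM in HMC replicates 1 to 3. The groups did not overlap, with the lowest DPC library at 13.3 times the highest HMC library. Unlike MFNG in DPC, LFNG remained measurable in the cells where it was low, with 76, 70 and 94 reads in the HMC libraries. HMC replicate 3 held the most LFNG and also the most MFNG of its group. The means were 32.0 ± 1.38 FPKM in DPC against 1.99 ± 0.294 FPKM in HMC, a ratio of 16.1 toward DPC and of 17.5 without HMC replicate 3.

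**Figure D1:**
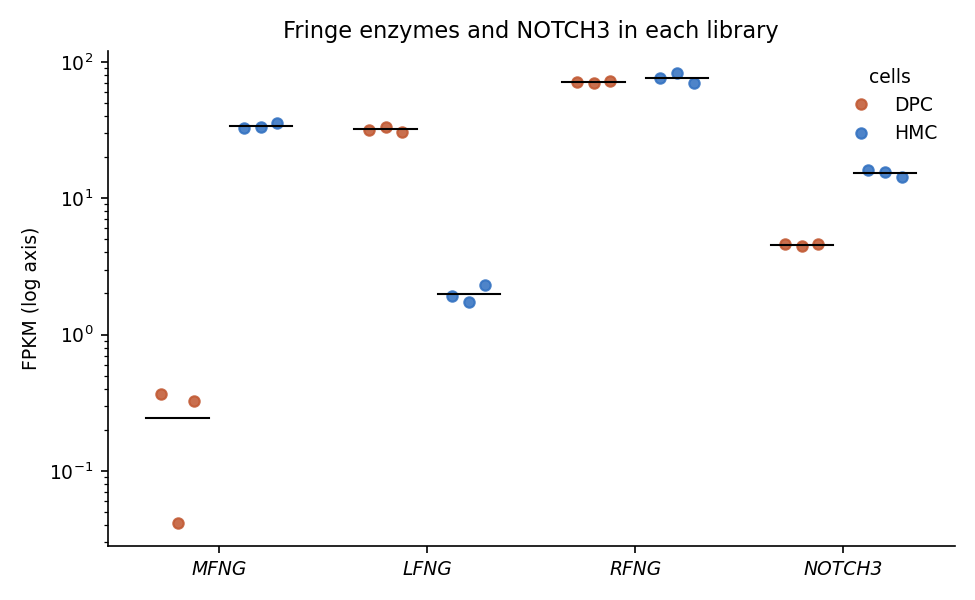
FPKM (log axis) of MFNG, LFNG, RFNG and NOTCH3 in each of the 3 DPC and 3 HMC libraries, with points in replicate order and a line at the group mean. MFNG and NOTCH3 lie higher in HMC, LFNG lies higher in DPC, and the RFNG values of the groups overlap.

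On the scale used for testing, log2(FPKM + 1), the difference DPC minus HMC was -4.82 for MFNG, 3.47 for LFNG and -1.56 for NOTCH3. This scale understates differences of genes that are low in a group. The difference of MFNG was -6.81 with a pseudocount of 0.1 and -7.39 with voom on recovered reads. Of the low pathway genes described below, DLL3, JAG2, DNER and HEY2 moved by larger amounts. Others, such as HES7, DLK2, HEYL, NRARP and APH1B, moved by smaller amounts. Among the 11883 genes tested, 173 had a difference toward HMC at least as large as that of MFNG, counting MFNG itself. For LFNG toward DPC the number was 219, and for NOTCH3 toward HMC it was 1183. Non-overlapping groups were common in these data, since 77.9% of all tested genes had them. All 3 members did, and nothing is read from that.

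The third family member, RFNG (ENSBGRG00000005089), had the highest fringe FPKM in both cell types, a ranking that rests on its short gene model. It stood at 71.1, 70.5 and 72.6 FPKM in DPC replicates 1 to 3 and at 75.8, 82.7 and 70.2 FPKM in HMC replicates 1 to 3. The groups overlapped, since HMC replicate 3 was the lowest of all 6 libraries and HMC replicate 2 the highest. The log2 difference was -0.09 (95% interval -0.23 to 0.05, limma adjusted p = 0.208). The direction was not stable: it was 0.21 after quantile normalization (limma adjusted p = 0.0109) and 0.06 under median-of-ratios scaling (limma adjusted p = 0.381), while without HMC replicate 3 it was -0.15 (limma adjusted p = 0.0336).

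Because FPKM is scaled to length, the enzymes can be compared with each other, within the limits of the gene models used. The FPKM values imply model lengths of 774 bases for RFNG, 1838 for MFNG and 2873 for LFNG. In reads, not scaled to length, RFNG was not on top: it had 741, 720 and 750 reads in DPC, where LFNG had 1232, 1268 and 1179. In HMC it had 811, 895 and 768 reads, overlapping the 836, 858 and 927 of MFNG. The shares that follow depend on these lengths. The summed fringe level was 104 ± 0.403 FPKM in DPC against 112 ± 4.97 FPKM in HMC. Summed FPKM over all genes was also lower in DPC, at 548897 to 554803 per library against 647963 to 651773 in HMC. Sums of fringe FPKM are therefore not read as a difference between the cell types. RFNG made up 68.9% ± 1.12 of the fringe sum in DPC and 67.9% ± 2.71 in HMC. The remainder was held by different enzymes. LFNG supplied 30.9% ± 1.26 in DPC and 1.78% ± 0.333 in HMC, while MFNG supplied 0.235% ± 0.171 in DPC and 30.4% ± 2.38 in HMC. LFNG in DPC, at 30.7 to 33.5 FPKM, and MFNG in HMC, at 32.9 to 35.7 FPKM, were at levels whose ranges overlapped. Setting RFNG aside, MFNG and LFNG together came to 32.3 ± 1.23 FPKM in DPC against 36.0 ± 1.76 FPKM in HMC. LFNG was 99.2% ± 0.559 of that pair in DPC, and MFNG was 94.5% ± 0.566 of it in HMC. These shares follow from levels for which LFNG and MFNG were chosen and are a description.

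**Figure D2:**
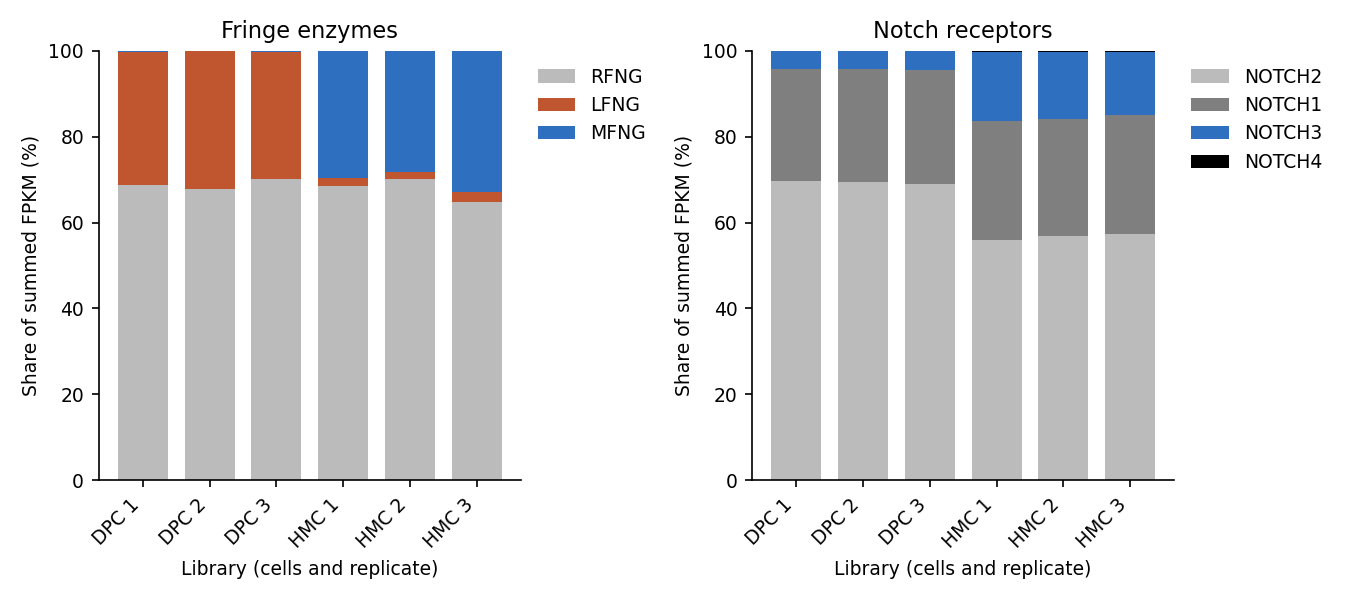
Share (%) of each fringe enzyme in the summed fringe FPKM and of each receptor in the summed NOTCH1 to NOTCH4 FPKM, for each library. RFNG holds 64.9 to 70.2% of fringe FPKM in every library, with LFNG filling most of the rest in DPC and MFNG in HMC; NOTCH3 holds 4.05 to 4.27% of receptor FPKM in DPC and 14.6 to 15.9% in HMC.

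NOTCH3 was present in both cell types and higher in HMC. It stood at 4.58, 4.45 and 4.60 FPKM in DPC replicates 1 to 3, and at 16.2, 15.5 and 14.2 FPKM in HMC replicates 1 to 3. The DPC libraries were close to each other, HMC replicate 3 was the lowest of the HMC libraries, and the groups did not overlap. These values rested on 493 to 519 reads per DPC library and 1688 to 1885 per HMC library. The means were 4.54 ± 0.0823 FPKM in DPC against 15.3 ± 1.02 FPKM in HMC, a ratio of 3.37 and of 3.49 without HMC replicate 3. Within DPC the members ranked LFNG, NOTCH3, MFNG, and within HMC they ranked MFNG, NOTCH3, LFNG, with no overlap between neighbours in either order.

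The other receptors were less divided. NOTCH2 was the most abundant receptor mRNA in both and was higher in DPC, at 78.5, 76.3 and 74.2 FPKM there and 57.2, 56.4 and 55.9 FPKM in HMC (log2 difference 0.43, SE 0.04, limma adjusted p = 2.41e-05). NOTCH1 (in the table TAN1) did not pass, at 29.1 ± 0.376 FPKM in DPC against 27.4 ± 0.926 FPKM in HMC (95% interval of the log2 difference -0.03 to 0.20, limma adjusted p = 0.151). It passed toward DPC under median-of-ratios scaling, with 0.24 (limma adjusted p = 0.00319), and under quantile normalization, with 0.34 (limma adjusted p = 0.000355). NOTCH4 (INT3) was too low to be tested, at 0.0993 to 0.152 FPKM in DPC and 0.263 to 0.399 FPKM in HMC. Summed over the 4 receptors the level was 110 ± 2.52 FPKM in DPC against 99.5 ± 2.49 FPKM in HMC. NOTCH3 made up 4.13% ± 0.123 of it in DPC and 15.4% ± 0.676 in HMC, and NOTCH2 made up 69.3% ± 0.401 and 56.8% ± 0.783. In HMC, NOTCH3 was therefore the lowest of the 3 receptors with more than trace mRNA, as it was in DPC.

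Since NOTCH3 marks mural cells of vessels in tissue, the mural list was read beside it. Of 9 listed markers 8 were matched, 3 could be tested and all 3 were higher in DPC, opposite in direction to NOTCH3. Of all tested genes 29.7% were higher in DPC. The receptor PDGFRB stood at 44.8 ± 1.40 FPKM in DPC against 1.25 ± 0.0559 FPKM in HMC, the proteoglycan CSPG4 at 5.20 ± 0.710 and 1.35 ± 0.124 FPKM, and NDUFA4L2 at 2.64 ± 1.42 and 0.0903 ± 0.156 FPKM. PDGFRB and CSPG4 are also made by fibroblasts. NDUFA4L2 passed the filter only through DPC, with 10, 4 and 14 reads there and 0, 1 and 0 reads in HMC. RGS5 and KCNJ8 were at 0 in every HMC library and at most 0.346 and 0.221 FPKM in DPC. ABCC9 reached 0.440 FPKM in DPC against 0.0130 FPKM in HMC, DES did not exceed 0.140 FPKM and MYH11 did not exceed 0.236 FPKM in any library. The summed list lay between 52.7 and 54.6 FPKM in DPC, where PDGFRB made up most of it, and between 2.60 and 3.03 FPKM in HMC.

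The low side of each member can be set against markers of the other cell type. In HMC, LFNG was at 6.22% of its DPC mean. The 8 mesenchymal markers were at 0.764 to 4.08% of theirs, with TWIST1 the lowest and COL3A1 the highest, so LFNG lay above each of them. In DPC, MFNG was at 0.716% of its HMC mean. Of the epithelial markers other than KRT14, EPCAM, KRT18, CDH1 and KRT8 were at 0.183 to 0.255% of their HMC means, ITGA6 at 0.750%, KRT5 at 3.52% and TP63 at 6.93%. MFNG thus fell within the epithelial range, and the part that traces of epithelial RNA may have in its 18 DPC reads was not tested. NOTCH3 in DPC was at 29.7% of its HMC mean, above these 7 epithelial markers. The listed marker set aside here, KRT14, was nearly even between the groups, its lower mean at 92.5% of the higher, and so lay above NOTCH3. The summed mesenchymal list lay between 257 and 288 FPKM in HMC (13261 to 14460 FPKM in DPC), and the epithelial list between 53.5 and 73.8 FPKM in DPC (5940 to 6245 FPKM in HMC).

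**Figure D3:**
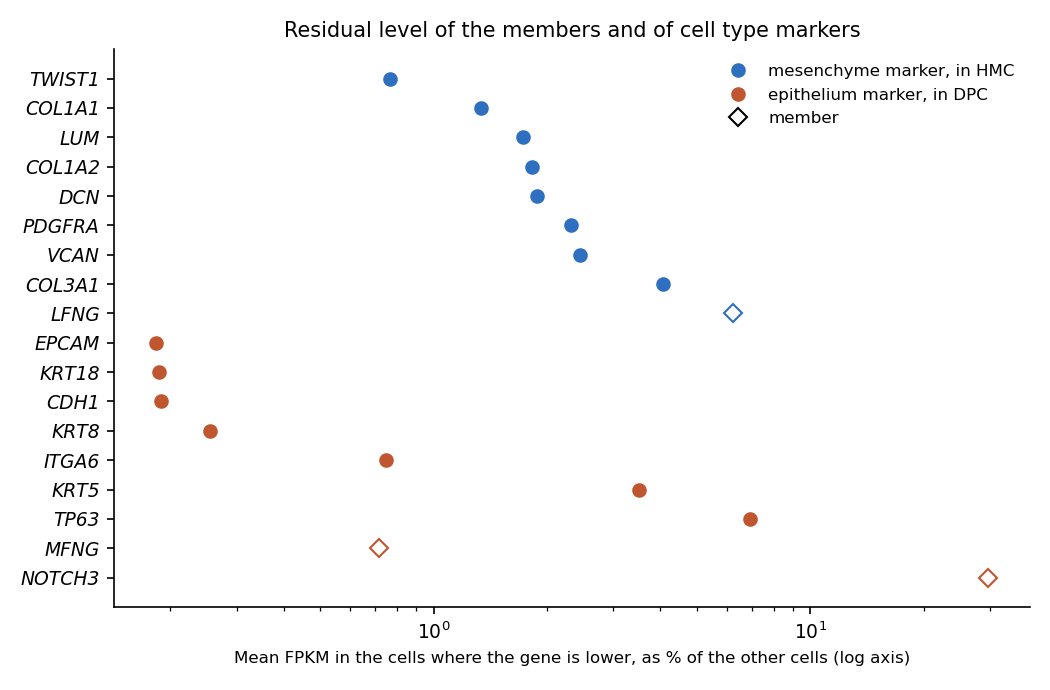
Mean FPKM in the cell type where a gene is lower, as a percentage of its mean in the other cell type (log axis), for LFNG beside 8 mesenchymal markers and for MFNG and NOTCH3 beside 7 epithelial markers; KRT14, at 92.5%, is left out. LFNG (6.22%) and NOTCH3 (29.7%) lie above the markers shown in their comparison, and MFNG (0.716%) lies among them.

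Genes with the most similar course over the 6 libraries were found by the root mean square distance between centred log2(FPKM + 1) profiles. For MFNG these were TRIB1 (distance 0.06), CGN (0.06) and MMP15 (0.08), against a median distance of 2.34 over all genes. CGN, which encodes the tight junction protein cingulin, stood at 0.801 ± 0.178 FPKM in DPC against 48.2 ± 0.705 FPKM in HMC. For LFNG they were ACVRL1 (0.04), CRMP4 (0.06) and the row called UNQ564/PRO1126 (0.07), against a median of 1.82. ACVRL1, a receptor of the TGF-beta family, stood at 11.2 ± 0.784 FPKM in DPC against 0.109 ± 0.0844 FPKM in HMC. For NOTCH3 they were C19orf3 (0.02), KIAA1037 (0.03) and GALNTL1 (0.03), against a median of 0.74. With 6 libraries in 2 groups, this likeness mostly records a similar gap between the cell types.

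The rest of the pathway was read from a list ordered by role. Of its 74 symbols 65 were matched to rows, 62 of them other than the members, and 59 of those were abundant enough to test. The 3 below the filter were NOTCH4, NEURL1 (NEURL) and DTX1. Of the 59 genes, 38 were higher in HMC, 16 were higher in DPC and 5 did not pass (limma adjusted p under 0.05). That is 91.5% called, against a background of 75.9% of all 11883 genes tested. Toward HMC it was 64.4% against a background of 46.2%, and toward DPC 27.1% against 29.7%. At least 2-fold differences were found for 20 genes, which is 33.9% against a background of 27.1%. Of these 14 lay toward HMC and 6 toward DPC, where the background shares were 16.1% and 11.0%. The median log2 difference of the list was -0.34, against -0.15 for all genes. Scaling mattered for the split: HMC-high genes made up 70.4% of the list's calls in the unscaled table, 62.7% under median-of-ratios scaling and 56.3% under quantile normalization. Over all genes, DPC-high genes made up 39.1%, 49.0% and 53.8% of calls under the same scalings, and the median log2 difference was -0.15, -0.02 and 0.05. For 9 of the 59 genes, 1 group mean lay below the filter of 0.5 FPKM, so that they could be tested only through the group where they were high, which holds for 11.4% of all tested genes.

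The rows that the table itself annotates to Notch signaling were read in the same way. Of 102 such rows other than the members, 51 of them shared with the list, 88 were tested. Of these 44 were higher in HMC (50%, beside 46.2% of all genes), 30 were higher in DPC (34.1%, beside 29.7%) and 14 did not pass. The call rate of 84.1% stood beside the background of 75.9%, and the median log2 difference was -0.21, against -0.15 for all genes. After quantile normalization 34 were higher in HMC and 39 in DPC. DPC-high genes were then 53.4% of the calls of this set, beside 53.8% of calls over all genes.

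**Figure D4:**
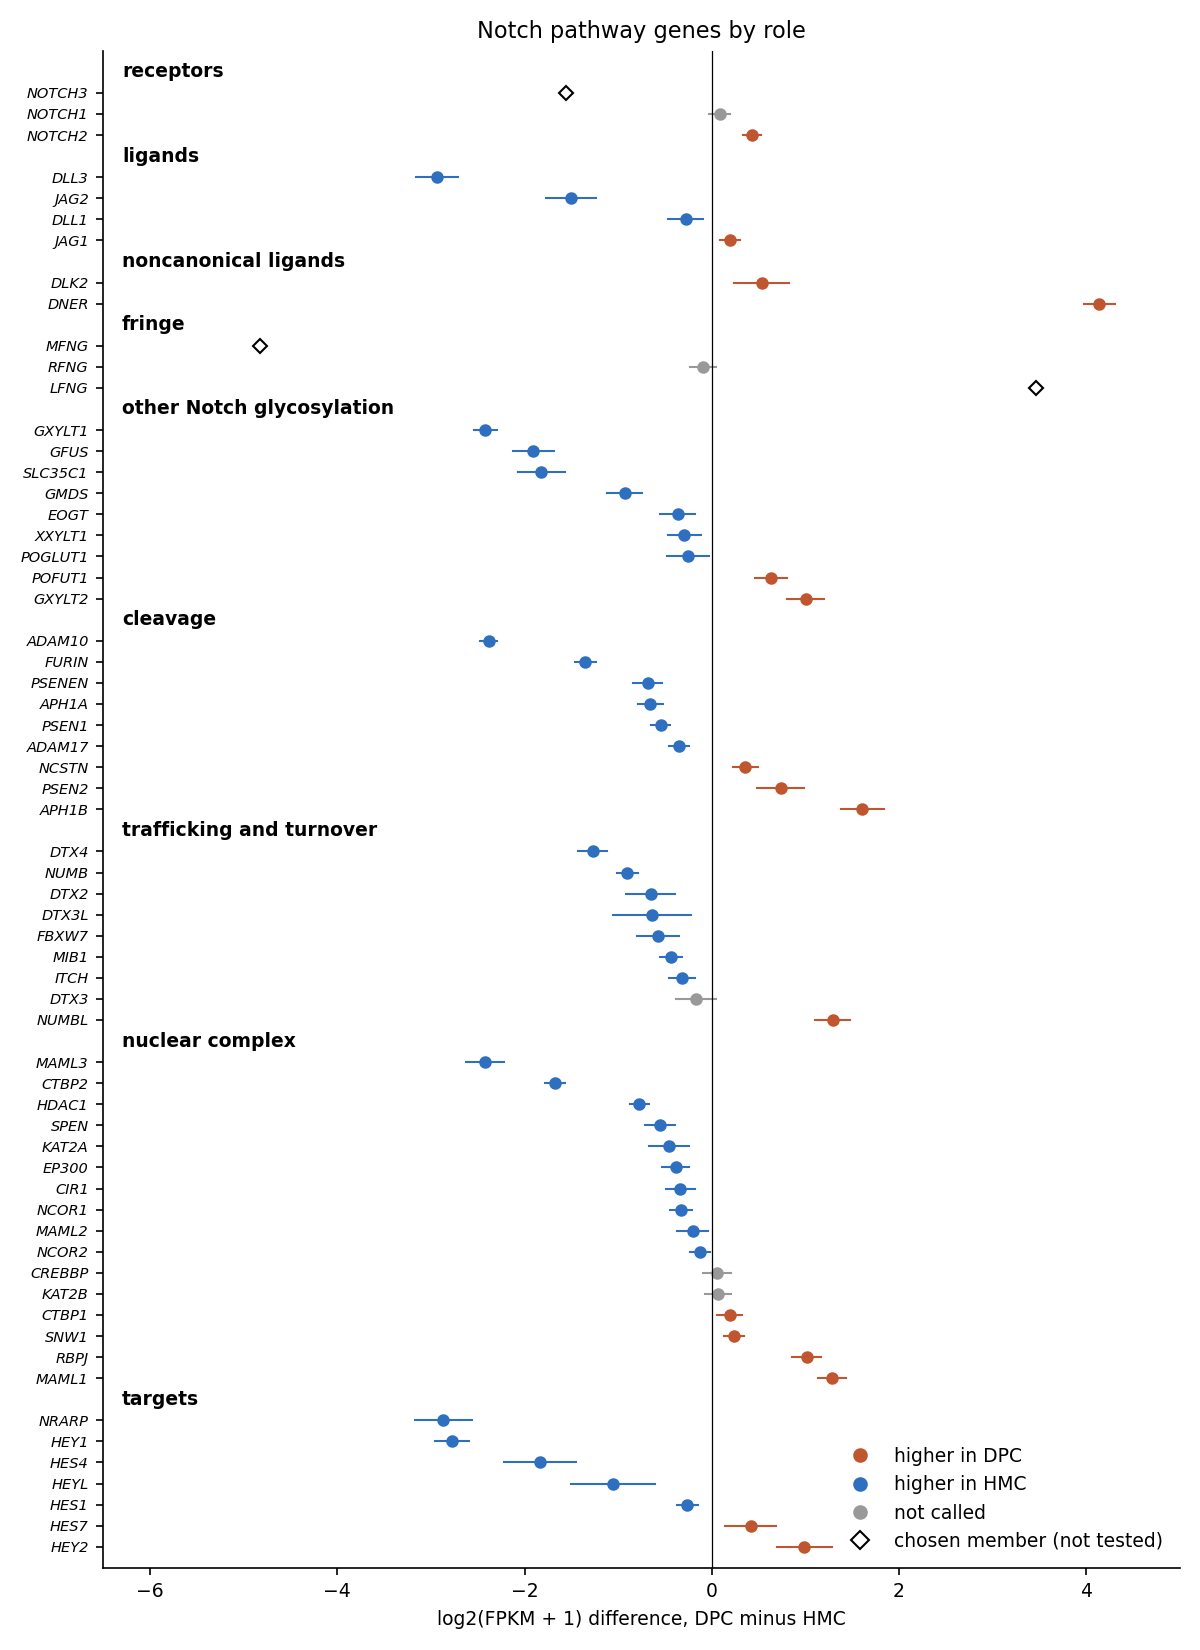
Difference in log2(FPKM + 1), DPC minus HMC, for the tested genes of the Notch list by role, with 95% limma intervals; open diamonds are the chosen members, which were not tested. MFNG (-4.82) and LFNG (3.47) lie at opposite ends of the fringe family, with RFNG (-0.09) near 0.

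Among the canonical ligands, JAG1 (JAGL1), the main Jagged ligand here, was abundant in both cell types and slightly higher in DPC. It stood at 60.6, 58.8 and 60.8 FPKM in DPC and at 53.1, 53.7 and 50.1 FPKM in HMC (log2 difference 0.20, SE 0.05, limma adjusted p = 0.0044). DLL3, a Delta homologue known to act on Notch within the same cell and not as an activating ligand, was close to absent in DPC, with 5, 2 and 1 reads. It stood at 6.89, 7.62 and 7.98 FPKM in HMC (log2 difference -2.93, SE 0.10, limma adjusted p = 2.22e-08, and -5.23 with a pseudocount of 0.1). JAG2 was also higher in HMC, at 1.62, 2.14 and 2.39 FPKM against 0.0459, 0.125 and 0.0463 FPKM (log2 difference -1.50, limma adjusted p = 5.24e-06, and -3.66 with a pseudocount of 0.1). DLL1 (UNQ146/PRO172), a Delta ligand, was low in both, at 3.06 ± 0.0724 FPKM in DPC against 3.94 ± 0.356 FPKM in HMC (limma adjusted p = 0.0134). It did not pass under median-of-ratios scaling (limma adjusted p = 0.102) or quantile normalization (limma adjusted p = 0.161). JAG1 made up 94.9% ± 0.283 of the summed FPKM of these 4 ligands in DPC and 79.5% ± 2.05 in HMC, where DLL3 made up 11.4% ± 0.881.

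Both matched noncanonical ligands, DNER and DLK2, were higher in DPC (2 of 2, beside 29.7% of all tested genes). They passed the filter only through DPC, where they were high, so nothing is read from this count. DNER (Bet), a transmembrane protein described as a Notch ligand in the nervous system, stood at 19.7, 19.1 and 19.3 FPKM in DPC and at 0.113, 0.200 and 0.154 FPKM in HMC. Its log2 difference of 4.14 (SE 0.07, limma adjusted p = 6.30e-10) was larger than that of LFNG, and it was 6.27 with a pseudocount of 0.1. DNER had 5, 9 and 7 reads in HMC. DLK2 (EGFL9) was low, at 0.781 ± 0.119 FPKM in DPC against 0.235 ± 0.176 FPKM in HMC (limma adjusted p = 0.0048). It rested on 1, 5 and 8 reads in HMC and fell below the filter when any DPC library was left out.

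The other enzymes that build Notch glycans, and those that supply GDP-fucose, were higher in HMC in 7 of 9 cases and in DPC in 2. These are 77.8% and 22.2%, beside 46.2% and 29.7% of all tested genes. POFUT1 (FUT12), which adds the fucose that fringe enzymes extend, was one of the latter, along with GXYLT2 (GLT8D4). The largest difference was that of the xylosyltransferase GXYLT1 (GLT8D3), at 10.5, 10.1 and 11.1 FPKM in DPC and 59.4, 60.8 and 62.4 FPKM in HMC (log2 difference -2.42, limma adjusted p = 2.30e-09). The GDP-fucose synthase GFUS (TSTA3) stood at 12.1 ± 1.25 FPKM in DPC against 48.1 ± 4.76 FPKM in HMC. The Golgi GDP-fucose transporter SLC35C1 (FUCT1) stood at 4.51 ± 0.769 and 18.4 ± 0.961 FPKM, with log2 differences of -1.91 and -1.82 for the pair.

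All 9 genes of receptor cleavage passed, beside 75.9% of all genes, with 6 toward HMC (66.7%, beside 46.2%) and 3 toward DPC (33.3%, beside 29.7%). ADAM10 (MADM), the protease of the ligand-induced cut, was the most abundant, at 34.5 ± 0.736 FPKM in DPC against 185 ± 4.74 FPKM in HMC (log2 difference -2.38, SE 0.04). FURIN (FUR), which cuts the receptor precursor, had a log2 difference of -1.35. APH1B (UNQ688/PRO1328), a gamma-secretase subunit, went the other way, at 2.78 ± 0.379 FPKM in DPC against 0.234 ± 0.0509 FPKM in HMC. Of 9 tested genes of trafficking and turnover, 7 were higher in HMC (77.8%, beside 46.2% of all genes) and 1 in DPC (11.1%, beside 29.7%). The latter was NUMBL (Nbl), at 11.3 ± 0.989 FPKM in DPC against 4.0 ± 0.239 FPKM in HMC. Its relative NUMB, an inhibitor of Notch, was the most abundant of them and higher in HMC, at 45.5 ± 0.0651 FPKM against 23.9 ± 0.928 FPKM. DTX4 (KIAA0937), a ubiquitin ligase of the Deltex family, had a log2 difference of -1.27.

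Of 16 genes of the nuclear complex 10 were higher in HMC (62.5%, beside 46.2% of all genes), 4 were higher in DPC (25%, beside 29.7%) and 2 did not pass. The Mastermind coactivators were divided: MAML1 was higher in DPC, at 22.1 ± 0.202 against 8.48 ± 0.599 FPKM, and MAML3 was higher in HMC, at 7.95 ± 0.371 against 0.673 ± 0.138 FPKM. Their log2 differences were 1.28 and -2.42. MAML2 differed less, at 10.1 ± 0.475 FPKM in DPC against 11.7 ± 0.856 FPKM in HMC (limma adjusted p = 0.0316). RBPJ (RBPSUH) was higher in DPC, at 14.6 ± 0.892 against 6.71 ± 0.251 FPKM (log2 difference 1.01, limma adjusted p = 2.28e-06). The corepressor CTBP2 had a difference of -1.68. Its paralogue CTBP1 (CTBP), the most abundant gene of the role, stood at 107 ± 6.58 FPKM in DPC against 93.8 ± 4.75 FPKM in HMC (limma adjusted p = 0.016). CTBP1 did not pass without DPC replicate 1 (limma adjusted p = 0.0536) or without HMC replicate 2 (limma adjusted p = 0.0567).

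All 7 matched genes of the target list passed (HES5 and HES6 are not analysed here), beside 75.9% of all genes. They lay toward HMC in 5 cases (71.4%, beside 46.2%) and toward DPC in 2 (28.6%, beside 29.7%). HES7, HEY2, HEYL and NRARP passed the filter only through the group where they were high, so this count supports nothing by itself. HEY1, a repressor induced by Notch, stood at 6.97, 7.28 and 8.72 FPKM in DPC and 59.6, 57.3 and 57.4 FPKM in HMC (log2 difference -2.78, SE 0.08, limma adjusted p = 1.08e-08). NRARP, which is induced by Notch and limits it, stood at 0.430, 0.220 and 0.434 FPKM in DPC and 10.9, 8.08 and 8.0 FPKM in HMC (log2 difference -2.87, limma adjusted p = 1.88e-07). The DPC values of NRARP rested on 2, 1 and 2 reads. HES4 (BHLHB42) was higher in HMC as well, at 13.7 ± 2.89 FPKM against 3.10 ± 0.671 FPKM, and so was HEYL, at 1.57 ± 0.697 FPKM against 0.203 ± 0.0454 FPKM. HEYL rested on 2 or 3 reads in each DPC library.

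HES1, a widely used readout of the pathway, differed little. It stood at 31.3, 30.2 and 29.4 FPKM in DPC and 35.7, 37.2 and 36.5 FPKM in HMC (log2 difference -0.26, SE 0.05, limma adjusted p = 0.00124). It did not pass under median-of-ratios scaling (-0.11, limma adjusted p = 0.063), and after quantile normalization its sign turned (0.01, limma adjusted p = 0.857). HEY2 (BHLHB32) was higher in DPC, at 0.805, 1.05 and 1.40 FPKM, and in HMC it had 0, 0 and 2 reads (log2 difference 0.99, limma adjusted p = 0.000145, and 3.12 with a pseudocount of 0.1). It fell below the filter without DPC replicate 2 or without DPC replicate 3. HES7 (BHLHB37) was low in both, at 0.796 ± 0.201 FPKM in DPC against 0.344 ± 0.116 FPKM in HMC (limma adjusted p = 0.0117), and it fell below the filter without DPC replicate 2.

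**Figure D5:**
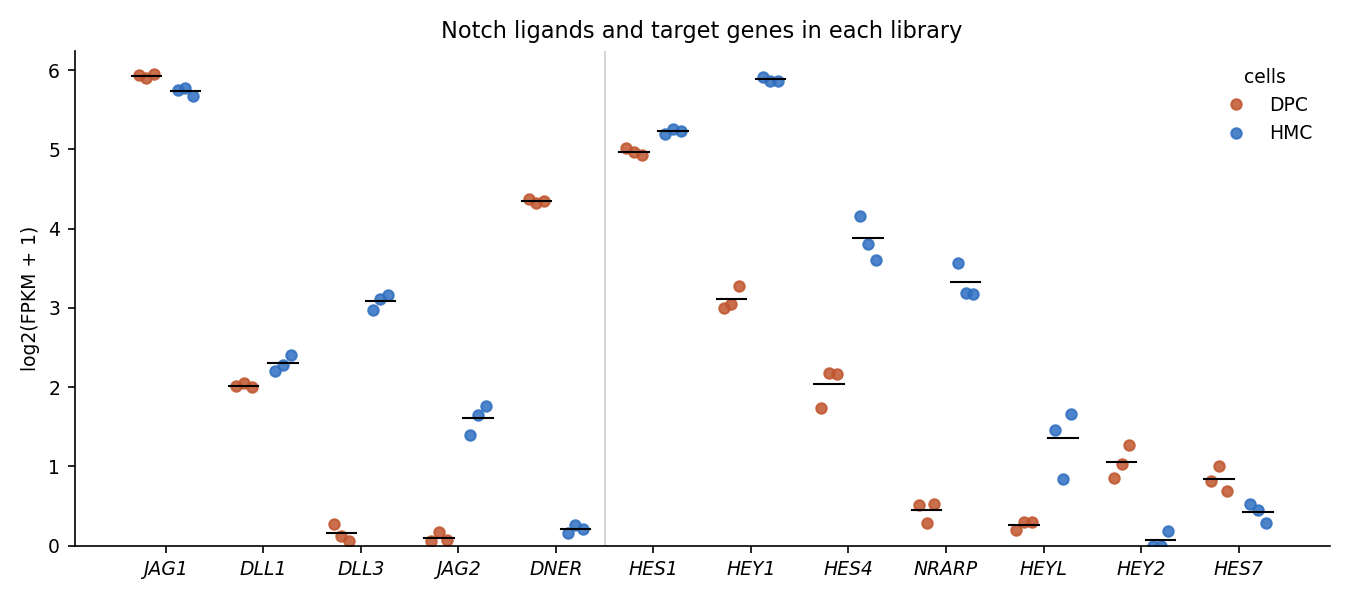
log2(FPKM + 1) of Notch ligands (left of the grey line) and target genes (right) in each DPC and HMC library, with a line at the group mean. HEY1, HES4, NRARP, HEYL, DLL3 and JAG2 lie higher in HMC, DNER and HEY2 lie higher in DPC, and JAG1 and HES1 are close in level.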

How the data were processed

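FPKM of 15646 genes, with 1 column for each of the 6 samples, were deposited by the authors. Per the labels' protocols, libraries came from Trizol RNA and a TruSeq Stranded mRNA kit. Tools named in the submitters' processing notes, with no roles, are DESeq 1.20.0, HISAT2 2.2.1.0 and Trimmomatic. No counter, genome build or annotation is named in the sources used here, so coordinates are left out. Within a gene the values were integer multiples of a smallest step (100% of genes, relative tolerance 1e-09), which gave reads up to a common factor per gene. With the implied library totals, lengths of 98.1% of 476 short genes were whole within 0.01 bases. Paralogues may share reads.

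Groups were compared with limma 3.58.1 (R 4.3.3) applied to log2(FPKM + 1), its prior variance following a trend. Genes averaging 0.5 FPKM or more over the 6 samples were tested, two-sided, DPC minus HMC, with Benjamini-Hochberg adjustment over all tested genes at 0.05. The procedure was tested on simulated data. Members and lists were chosen with earlier results of these data known. Of 65 matched list symbols, 27 matched directly, 33 through older symbols (in parentheses in the text) and 5 through older symbols added after the data were examined. The 9 unmatched symbols are not analysed here. Named were the members, all matched receptors, ligands, fringe enzymes and targets, and in other roles the 3 largest differences and the most abundant gene. POFUT1, GXYLT2, RBPJ, MAML2, KRT14 and the markers given for their residual level were added after their values were seen. Alternatives were another pseudocount, other filters, 2 rescalings, no variance trend, voom on recovered reads, a replicate block, and each library left out.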

Additional observations from a re-analysis of the deposited data

How the results depend on the processing

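All 3 members kept their directions under every alternative run. They were chosen for their difference in these same libraries, so nothing is read from that. Their log2 differences moved by more than the replicate SD under some. For MFNG the value was -6.81 with a pseudocount of 0.1, -4.66 after quantile normalization and -7.39 with voom on recovered reads. For LFNG it was 3.59 under median-of-ratios scaling, 3.95 with a pseudocount of 0.1, 3.67 after quantile normalization and 4.0 with voom. For NOTCH3 it was -1.42, -1.73, -1.38 and -1.75 under the same settings. The pseudocount and voom act on low values by construction. Median-of-ratios scaling divides each library by 1 factor and so shifts all genes. The median log2 difference over all genes was -0.15 unscaled and -0.02 under it. The cause of the shifts after quantile normalization was not tested. Among 62 genes annotated to Notch signaling and tested with a filter at 5 FPKM, 17 were higher in DPC. They were 34% of the calls of this set, beside 35.6% of calls over all genes. Of 23 tested list genes under current symbols, 17 passed toward HMC (73.9%, beside 46.2% of all genes). Toward DPC 3 passed (13.0%, beside 29.7%). The whole list had 64.4% and 27.1%, and most of its 16 genes higher in DPC were matched through older symbols. Of 29 other tested genes, named by the rule and without those added later, RFNG turned to 0.21 after quantile normalization and 0.0636 under median-of-ratios scaling. HES1 turned to 0.0103 after quantile normalization. With the replicate number as a block, 36 list genes passed toward HMC and 16 toward DPC. The latter were 30.8% of the calls of the list, beside 38.9% of calls over all genes. None of the 29 genes changed its call. Same-numbered samples had deviations correlated at 0.023, 0.0337 and 0.00635, so the numbers were not taken as pairs. Leaving out a library gave no value where a gene fell below the filter: DLK2 for each DPC library, HEY2 for DPC replicates 2 and 3, and HES7 for DPC replicate 2. Depth limits MFNG in DPC, and it limits DLL3, JAG2, DLK2, DNER, APH1B, HES7, HEY2, HEYL and NRARP in the cells where they are low.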
